A study of Homo sapiens with 39 samples.

Results

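The genes described here are 54 interferon-stimulated and cytosolic nucleic acid sensing genes of 63187 genes in the table of C4-2B cells, given by name as a list. Of these, 50 were measured, since 4 had fewer than 10 counts in every library, and the tests covered 49 of them in a treatment panel and 47 in a time course. C4-2B is a castration-resistant prostate cancer cell line derived from LNCaP cells, and RNA was sequenced from it in 39 libraries, 3 for each of 13 groups. In the panel (21 libraries) the cells were exposed for 5 days to DMSO, the solvent, to an androgen receptor pathway inhibitor (ARPi; abiraterone acetate at 5 μM or enzalutamide at 20 μM), to a PARP inhibitor (PARPi; olaparib at 1 μM or talazoparib at 10 nM), or to abiraterone plus olaparib or enzalutamide plus talazoparib at those doses. In the time course (18 libraries) they were exposed to DMSO or to olaparib at 1 or 5 μM for 1 or 5 days. All groups are of this 1 cell line, and the labels name no genetic change in it. The labels do not say whether replicates came from separate cultures, so p-values measure the spread between these libraries, which may be technical.

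Cytosolic DNA is sensed by cGAS, which makes a cyclic dinucleotide that binds STING. STING recruits the kinase TBK1, which phosphorylates IRF3, and IRF3 turns on interferon beta. Secreted interferons act through JAK kinases on a complex that includes STAT2 and IRF9, which binds a promoter element of paired GAAA repeats and raises a broad set of antiviral genes. In tumor cells PARP inhibition is known to leave damaged DNA in the cytosol and to engage this pathway in some models, and the genes listed here are its usual readout.

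Total counts ran from 26932205 to 49833473 per library. Levels are given as CPM, counts relative to library size, scaled by edgeR's TMM method within each experiment. Differences are log2 fold changes ± SE from edgeR's quasi-likelihood test, with p-values adjusted over 18625 genes in the panel and 18502 in the time course, and a gene was called at an adjusted p under 0.05. Summed CPM of 8 prostate epithelial genes lay between 2045 and 5059, lower with an ARPi (2045 to 2506) than with DMSO in the panel (3973 to 4198), and up to 5059 after 5 days of olaparib at 5 μM. The summed CPM of 5 leukocyte markers was at most 1.76, with CD3E at 0 in 38 libraries, and that of 3 fibroblast markers was at most 0.0616. The leukocyte sum was higher after 5 days of olaparib (1.38 to 1.76) than in DMSO of that day (0.441 to 0.785) with LYZ at 50 to 61 counts against 15 to 20. The other leukocyte markers did not rise with LYZ there. PTPRC was at 0 to 3 counts with olaparib and with DMSO, and CD14 at 0 to 3 against 0 to 5. PTPRC had at most 3 counts with DMSO or a PARPi alone in the panel and 9 to 47 with an ARPi. LYZ went the other way, at 6 to 17 counts with DMSO and 0 to 5 with an ARPi. The sum of 3 endothelial markers ran from 7.68 to 22.6, nearly all of it VWF. In the panel it was 13.9 to 16.4 with DMSO, 20.7 to 21.3 with abiraterone, 20.2 to 22.6 with abiraterone plus olaparib and 11.6 to 12.7 with enzalutamide. With 5 μM olaparib it was 13.0 to 15.2 at day 1 (DMSO 10.2 to 11.3) and 7.68 to 8.96 at day 5 (DMSO 10.4 to 10.6). The part of these shifts in the results was not tested. In bulk RNA, fewer cells with a transcript and less transcript per cell cannot be told apart.

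Many of the promoters examined for these genes hold the sequence that interferon-activated factors read, and a selection is printed because it covers members that rose and members that fell. RefSeq promoter windows (GRCh38.p14, 250 bases before and 50 after the start) were matched for 41 of 54 members, in 53 windows. The paired GAAA motif, which is GAAA, any 2 bases and GAAA again, or on the other strand TTTC, any 2 bases and TTTC, was in 33 of the 53 member windows (62.3%) and in 1255 of all 35116 windows (3.57%). Sequences run 5′ to 3′ on the strand of the gene, and capitals mark the matches.
IFIT1, chr10:89392492-89392544, plus strand: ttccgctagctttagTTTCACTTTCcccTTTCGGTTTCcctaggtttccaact
IFI6, chr1:27672261-27672322, minus strand: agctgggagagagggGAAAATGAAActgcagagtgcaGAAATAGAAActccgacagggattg
ISG15, chr1:1013369-1013414, plus strand: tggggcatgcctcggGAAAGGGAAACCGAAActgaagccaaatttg
HERC5, chr4:88456979-88457069, plus strand: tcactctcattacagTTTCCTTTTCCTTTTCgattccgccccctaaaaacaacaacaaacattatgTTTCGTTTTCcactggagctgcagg
OAS3, chr12:112938447-112938486, plus strand: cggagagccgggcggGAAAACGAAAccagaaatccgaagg
IFIT5, chr10:89414508-89414588, plus strand: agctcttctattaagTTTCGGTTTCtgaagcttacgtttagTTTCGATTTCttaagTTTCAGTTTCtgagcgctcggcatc
LGALS3BP, chr17:78979957-78979996, minus strand: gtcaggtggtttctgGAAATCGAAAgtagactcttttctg
TRIM14, chr9:98119224-98119263, minus strand: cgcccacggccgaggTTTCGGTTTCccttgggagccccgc
IFITM3, chr11:320871-320927, minus strand: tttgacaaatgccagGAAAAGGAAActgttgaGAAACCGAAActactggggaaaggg

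The letters TTCNNNGAA, which read the same on both strands and are the pattern bound by STAT dimers, were in 13 of the 53 member windows (24.5%) and in 2689 of all 35116 windows (7.66%). They are shown for IRF1, whose window held no paired GAAA motif, and for PARP14, where they lie beside the other motif.
IRF1, chr5:132490874-132490912, minus strand: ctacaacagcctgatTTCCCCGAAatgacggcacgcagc
PARP14, chr3:122680784-122680822, plus strand: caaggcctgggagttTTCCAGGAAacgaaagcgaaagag
PARP9 and DTX3L lie head to head and their windows share 1 match, at chr3:122564332-122564341, 41 bases before the PARP9 start and 6 before the DTX3L start. The whole DTX3L window, chr3:122564088-122564387, is printed since it holds this match.
DTX3L: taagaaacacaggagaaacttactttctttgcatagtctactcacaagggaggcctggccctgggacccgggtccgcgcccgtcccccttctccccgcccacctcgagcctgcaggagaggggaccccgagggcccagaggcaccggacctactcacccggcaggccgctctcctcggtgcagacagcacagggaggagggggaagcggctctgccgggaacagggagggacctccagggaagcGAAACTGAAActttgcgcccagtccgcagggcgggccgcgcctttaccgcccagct
A match is a description of the letters and says nothing about binding in these cells.

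In the panel, all 6 treatments moved members mostly upward, and both combinations moved the most. With abiraterone 29 of 49 members rose (25.8% of all tested genes rose) and 5 fell (27.1%). Enzalutamide raised 27 (all genes 27%) and lowered 6 (26.3%). Olaparib raised 21 (all genes 19.6%) and lowered 5 (16%), and talazoparib raised 24 (18.4%) and lowered 4 (15.4%). Abiraterone plus olaparib raised 31 (all genes 31.1%) and lowered 6 (31.1%), and enzalutamide plus talazoparib raised 35 (31.2%) and lowered 8 (31.3%). The share of members that rose was above that of all genes in each of these 6 comparisons, and the share that fell was below it. In either direction abiraterone moved 34 members (all genes 52.9%), enzalutamide 33 (53.3%), olaparib 26 (35.6%), talazoparib 28 (33.8%), abiraterone plus olaparib 37 (62.2%) and enzalutamide plus talazoparib 43 (62.4%). The members' median log2 fold change was 0.37 with abiraterone, 0.36 with enzalutamide, 0.27 with olaparib, 0.26 with talazoparib, and in the combinations 0.50 (with olaparib) and 0.52 (with talazoparib), where the median of all genes lay between 0.000297 and 0.0197. Every treatment shared the same DMSO libraries.

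**Figure D1:**
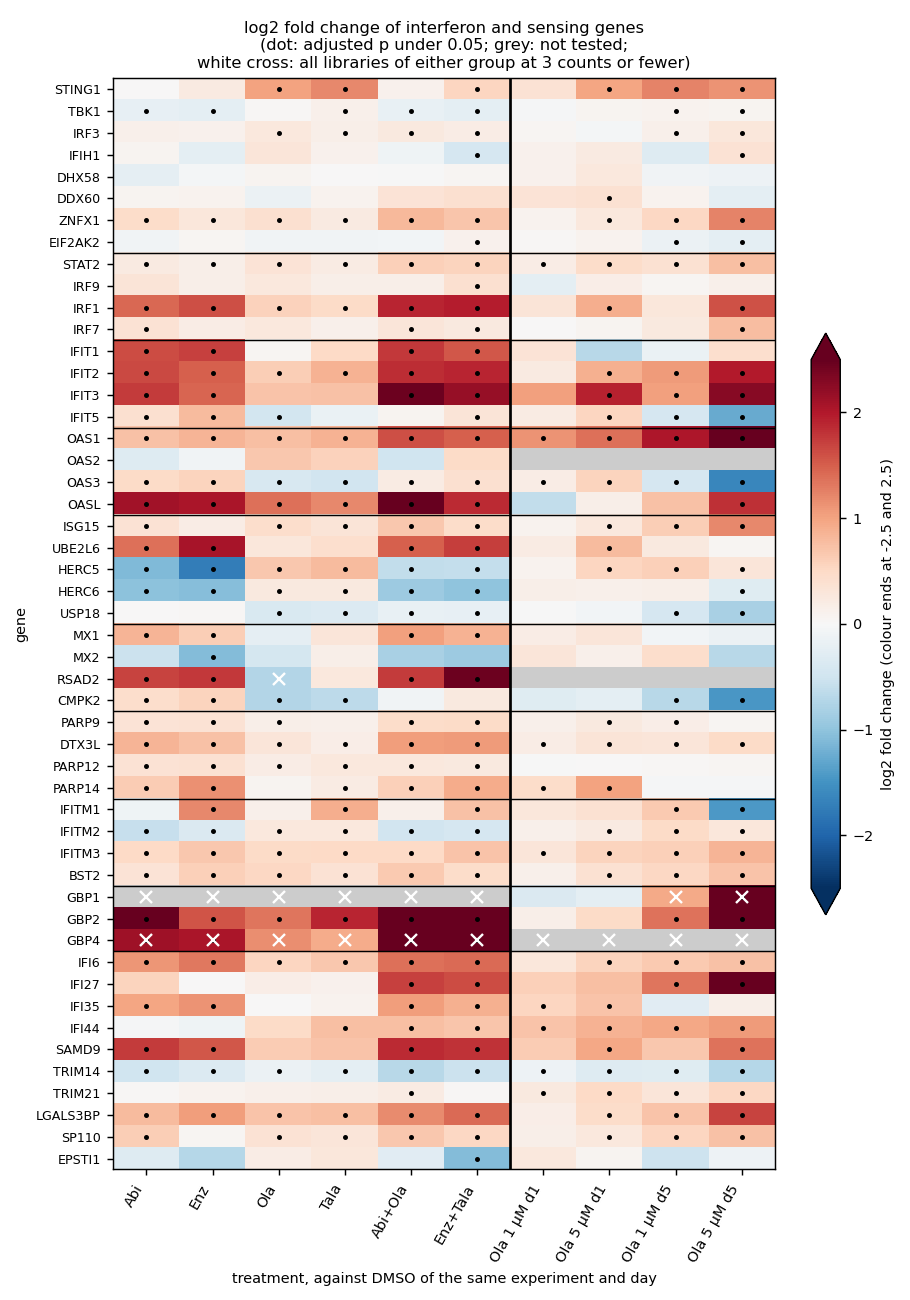
Log2 fold change of the 50 measured genes (rows, ordered by role) against DMSO of the same experiment and day (columns), in colour from -2.5 to 2.5. Black dots mark an adjusted p under 0.05, grey cells were not tested, and white crosses mark genes for which every library of either group compared held at most 3 counts (the DMSO libraries, or for RSAD2 the olaparib libraries), where the colour depends on a prior count. A reader should see red for most genes in the ARPi and combination columns, blue for HERC5 and HERC6 there, and blue for OAS3, IFIT5, IFITM1 and CMPK2 in the column for olaparib 5 μM at day 5.

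Of the DNA sensing axis, the sensor itself was near absent, while the adaptor STING1 was higher with PARPi. CGAS (chr6:73413515-73452297) had 45 counts summed over 39 libraries, with 13 at 0 and at most 6 in any. In the panel its counts were 1, 1 and 1 with DMSO, 0, 1 and 0 with abiraterone, 3, 0 and 2 with enzalutamide, 0, 0 and 0 with olaparib, 1, 2 and 0 with talazoparib, 1, 1 and 2 with abiraterone plus olaparib and 1, 3 and 1 with enzalutamide plus talazoparib. At day 1 of the time course they were 0, 1 and 1 with DMSO, 4, 0 and 0 with 1 μM olaparib and 1, 0 and 1 with 5 μM. At day 5 they were 0, 0 and 2 with DMSO, 1, 1 and 1 with 1 μM and 2, 6 and 3 with 5 μM. CGAS is stated as not measured, and no difference could be detected at this depth.

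STING1 (chr5:139475533-139482935) was at 2.92, 2.79 and 2.56 CPM with DMSO in the panel, 5.55, 5.48 and 5.5 with olaparib and 6.14, 6.97 and 5.89 with talazoparib. Both PARPi groups lay wholly above DMSO, and the differences were 1.00 ± 0.12 at adjusted p = 1.60e-08 and 1.20 ± 0.12 at adjusted p = 3.32e-10 (log2). With abiraterone STING1 was at 2.93, 2.76 and 2.59 CPM and with enzalutamide at 3.40, 3.23 and 3.09 CPM, and neither passed the test (0.01 ± 0.13 at adjusted p = 0.973 and 0.23 ± 0.12 at adjusted p = 0.108 on the log2 scale). In the combinations it was at 2.73, 3.30 and 2.75 CPM with abiraterone plus olaparib and 4.02, 4.08 and 3.83 CPM with enzalutamide plus talazoparib. The abiraterone plus olaparib libraries overlapped DMSO and all lay below olaparib alone, while enzalutamide plus talazoparib lay between DMSO and talazoparib without overlap. Against DMSO the log2 values were 0.10 ± 0.12 at adjusted p = 0.514 for the first and 0.53 ± 0.12 at adjusted p = 0.000211 for the second. STING1 was lower in each combination than in its PARPi alone, with log2 values of -0.90 ± 0.12 at adjusted p = 3.80e-08 and -0.67 ± 0.11 at adjusted p = 2.95e-06.

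In the time course STING1 was at 1.73, 1.96 and 1.61 CPM with DMSO at day 1, 2.51, 2.34 and 1.95 at 1 μM olaparib and 3.35, 3.51 and 3.64 at 5 μM. The libraries at 5 μM lay above all others of that day, and their rise was 0.98 ± 0.13 at adjusted p = 1.08e-07 (log2), while 1 μM did not pass the test (0.35 ± 0.14 at adjusted p = 0.0768). At day 5 it was at 1.94, 1.81 and 1.83 CPM with DMSO, 3.78, 5.04 and 4.36 at 1 μM and 4.17, 3.90 and 4.19 at 5 μM. Both doses lay above DMSO and overlapped each other. The log2 rises were 1.24 ± 0.13 at adjusted p = 3.38e-10 and 1.13 ± 0.13 at adjusted p = 9.90e-10, and the doses differed by -0.10 ± 0.12 at adjusted p = 0.500, with no call.

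TBK1 (chr12:64452090-64502114) was at 84.4, 87.9 and 83.3 CPM with DMSO, 78.0, 70.5 and 74.4 with abiraterone, 68.6, 74.7 and 73.3 with enzalutamide, 72.3, 75.1 and 76.8 with abiraterone plus olaparib and 69.6, 73.6 and 72.1 with enzalutamide plus talazoparib. All 12 libraries with an ARPi lay below the DMSO libraries, and TBK1 fell in all 4 groups, with log2 values from -0.25 to -0.19. With olaparib it was at 86.8, 86.5 and 89.2 CPM (0.04 ± 0.04 at adjusted p = 0.472 on the log2 scale, not called) and with talazoparib at 91.4, 91.1 and 96.7 CPM. The rise with talazoparib (0.13 ± 0.04 at adjusted p = 0.00741) was lost without talazoparib replicate C and with total-count scaling (adjusted p from 0.0966 to 0.122). In the time course TBK1 was at 86.3, 82.7 and 85.6 CPM with DMSO at day 1, 83.7, 83.1 and 83.2 at 1 μM and 87.0, 91.7 and 87.3 at 5 μM. At day 5 it was at 85.8, 82.7 and 81.9 CPM with DMSO, 88.6, 90.1 and 88.0 at 1 μM and 86.4, 88.0 and 88.1 at 5 μM. The libraries of either dose lay above DMSO at day 5, and at day 1 those of 1 μM overlapped it. The log2 differences from DMSO at day 5 were 0.09 ± 0.03 at adjusted p = 0.00698 at 1 μM and 0.07 ± 0.03 at adjusted p = 0.0321 at 5 μM, and the latter call was lost when day 5 DMSO replicate 2 or 3 or day 5 olaparib 5 μM replicate 3 was left out, with total-count scaling and with no filter on low counts (adjusted p from 0.0521 to 0.627) and had the opposite sign with total-count scaling.

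IRF3 (chr19:49659569-49665875), the factor that TBK1 activates, was at 25.7, 23.3 and 25.5 CPM with DMSO, 27.8, 28.0 and 25.5 with abiraterone, 25.1, 28.2 and 26.6 with enzalutamide, 29.8, 29.9 and 30.2 with olaparib and 28.6, 27.6 and 26.9 with talazoparib. It was at 29.7, 29.9 and 28.5 CPM with abiraterone plus olaparib and 25.4, 29.2 and 30.5 CPM with enzalutamide plus talazoparib. Olaparib, abiraterone plus olaparib and talazoparib lay wholly above DMSO, and the other groups overlapped it. The log2 rises were 0.27 ± 0.06 at adjusted p = 0.000386 with olaparib, 0.24 ± 0.06 at adjusted p = 0.000637 with abiraterone plus olaparib and 0.19 ± 0.06 at adjusted p = 0.00569 with enzalutamide plus talazoparib, the last lost without DMSO replicate B (adjusted p = 0.0595). The rise with talazoparib (0.15 ± 0.06 at adjusted p = 0.0389) was lost when DMSO replicate B or talazoparib replicate A, B or C was left out, with total-count scaling and in a fit of the compared groups alone (adjusted p from 0.0587 to 0.221). At day 1 IRF3 was at 28.4, 27.8 and 25.2 CPM with DMSO, 27.5, 26.8 and 30.0 with 1 μM olaparib and 26.1, 26.7 and 26.1 with 5 μM. Each dose overlapped DMSO, and the libraries of 1 μM lay above those of 5 μM. At day 5 it was at 27.2, 27 and 27.1 CPM with DMSO, 29.7, 29.5 and 29.2 with 1 μM and 32.5, 33.3 and 33.8 with 5 μM, and no group overlapped another. At day 5 the log2 difference at 5 μM was 0.29 ± 0.04 at adjusted p = 2.11e-07.

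Of the RNA sensors, ZNFX1, a helicase that binds double-stranded RNA, rose in each panel treatment. It was at 38.4, 42.4 and 44 CPM with DMSO, 76.7, 71.7 and 71.7 with abiraterone plus olaparib and 68.6, 67.3 and 67.3 with enzalutamide plus talazoparib. The combination libraries all lay above the single agents, which ranged from 46.9 to 58.9 CPM. The log2 changes ran from 0.23 with talazoparib to 0.81 ± 0.04 at adjusted p = 3.68e-18 with abiraterone plus olaparib. IFIH1 (MDA5), which senses long double-stranded RNA, was called lower with enzalutamide plus talazoparib (-0.42 ± 0.15 at adjusted p = 0.0131, log2), a call lost without enzalutamide plus talazoparib replicate C and with no filter on low counts (adjusted p from 0.0714 to 0.102). DHX58 (LGP2), its cofactor, and DDX60, a helicase, passed in no panel comparison with DMSO. EIF2AK2, the kinase PKR that stops translation when it binds RNA, passed with enzalutamide plus talazoparib (0.10 ± 0.04 at adjusted p = 0.0257, log2), a call lost when DMSO replicate A or C or enzalutamide plus talazoparib replicate A was left out (adjusted p from 0.0907 to 0.152).

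IRF1 is a factor that drives interferon-responsive promoters. Among members whose higher group averaged at least 50 counts, it was in the top 3 rises of each ARPi and combination group. It was at 1.36, 1.86 and 1.54 CPM with DMSO, 4.42, 4.83 and 3.63 with abiraterone and 4.04, 5.52 and 5.03 with enzalutamide. These ARPi libraries lay wholly above DMSO, by 1.43 ± 0.16 at adjusted p = 1.45e-09 and 1.61 ± 0.16 at adjusted p = 5.57e-11 (log2). With olaparib it was at 2.03, 2.46 and 2.63 CPM and with talazoparib at 2.33, 2.31 and 2.06 CPM, above DMSO but below every ARPi library. The log2 rises were 0.57 ± 0.17 at adjusted p = 0.00634 and 0.48 ± 0.16 at adjusted p = 0.0224, the latter lost when DMSO replicate A or C or talazoparib replicate A or B was left out and in a fit of the compared groups alone (adjusted p from 0.0692 to 0.103). The highest group means were with abiraterone plus olaparib (5.14, 6.11 and 6.6 CPM) and enzalutamide plus talazoparib (5.98, 5.63 and 7.0 CPM), with log2 values against DMSO of 1.90 ± 0.16 at adjusted p = 6.11e-13 and 1.96 ± 0.15 at adjusted p = 2.04e-13.

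The other transcription factors moved less. STAT2, part of the interferon-activated complex, rose with every panel treatment, from 0.15 with enzalutamide to 0.59 ± 0.05 at adjusted p = 1.45e-11 (log2) with abiraterone plus olaparib, and the enzalutamide call was lost when DMSO replicate B or C or enzalutamide replicate C was left out (adjusted p from 0.0740 to 0.178). IRF7, which amplifies interferon production, rose with abiraterone (0.36 ± 0.11 at adjusted p = 0.00632, log2) and was called higher with both combinations, by 0.30 ± 0.11 and 0.25 ± 0.11. The first of these was lost when DMSO replicate A or abiraterone plus olaparib replicate B was left out (adjusted p from 0.0587 to 0.0853). The second was lost when DMSO replicate A or C or enzalutamide plus talazoparib replicate A, B or C was left out and with DESeq2's Wald test (adjusted p from 0.0604 to 0.167). IRF9, the DNA-binding partner of STAT2, passed only with enzalutamide plus talazoparib (0.39 ± 0.17 at adjusted p = 0.0469, log2), and that call was lost when DMSO replicate B or enzalutamide plus talazoparib replicate A or B was left out and with DESeq2's Wald test (adjusted p from 0.0555 to 0.279).

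The IFIT genes, whose products bind viral RNA ends and block its translation, rose with ARPi. IFIT1 (chr10:89392546-89406487) was at 0.645, 0.553 and 0.633 CPM with DMSO, 2.00, 1.78 and 1.94 with abiraterone and 1.67, 1.84 and 2.44 with enzalutamide. No ARPi library overlapped DMSO, and the log2 rises were 1.64 ± 0.22 at adjusted p = 9.84e-08 and 1.70 ± 0.22 at adjusted p = 3.73e-08. With olaparib IFIT1 was at 0.684, 0.536 and 0.659 CPM, which overlapped DMSO, and with talazoparib at 0.890, 1.02 and 0.678 CPM, and neither passed (0.04 ± 0.24 at adjusted p = 0.927 and 0.49 ± 0.23 at adjusted p = 0.108, log2). IFIT1 was at 2.54, 2.01 and 1.74 CPM with abiraterone plus olaparib and 1.90, 1.70 and 1.81 CPM with enzalutamide plus talazoparib, and each overlapped its ARPi alone.

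IFIT2 was at 1.36, 0.699 and 0.962 CPM with DMSO, 3.31, 3.18 and 2.86 with abiraterone, 3.00, 2.92 and 2.56 with enzalutamide and 1.75, 1.81 and 1.89 with talazoparib. It was at 3.68, 3.69 and 3.41 CPM with abiraterone plus olaparib and 3.84, 3.89 and 3.48 CPM with enzalutamide plus talazoparib. Each of these groups lay above all DMSO libraries. The log2 rises were 1.64 ± 0.19 at adjusted p = 2.01e-09 for abiraterone, 1.5 ± 0.18 at adjusted p = 1.33e-08 for enzalutamide, 0.87 ± 0.19 at adjusted p = 0.000429 for talazoparib, 1.85 ± 0.18 at adjusted p = 7.66e-11 for abiraterone plus olaparib and 1.91 ± 0.18 at adjusted p = 2.70e-11 for enzalutamide plus talazoparib. With olaparib IFIT2 was called higher by 0.61 ± 0.19 at adjusted p = 0.0121, lost when DMSO replicate B or olaparib replicate C was left out and in a fit of the compared groups alone (adjusted p from 0.0755 to 0.121). IFIT5 was at 4.18, 4.04 and 3.17 CPM with DMSO and 2.5, 3.08 and 2.69 CPM with olaparib, where every library lay below DMSO. The difference with olaparib was -0.46 ± 0.14 at adjusted p = 0.00949 (log2), and the call was lost when DMSO replicate A or B was left out (adjusted p from 0.0513 to 0.0530). With enzalutamide IFIT5 rose instead, to 5.87, 6.82 and 6.89 CPM (0.79 ± 0.13 at adjusted p = 3.05e-06, log2). It was called higher with abiraterone (0.40 ± 0.13) and with enzalutamide plus talazoparib (0.32 ± 0.13). The abiraterone call was lost when DMSO replicate C or abiraterone replicate A was left out (adjusted p from 0.0630 to 0.121). The combination's call was lost when DMSO replicate C or enzalutamide plus talazoparib replicate A or B was left out (adjusted p from 0.0519 to 0.239). IFIT3 was low, between 0.102 and 1.3 CPM in the panel, and rose with abiraterone, enzalutamide and both combinations.

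**Figure D2:**
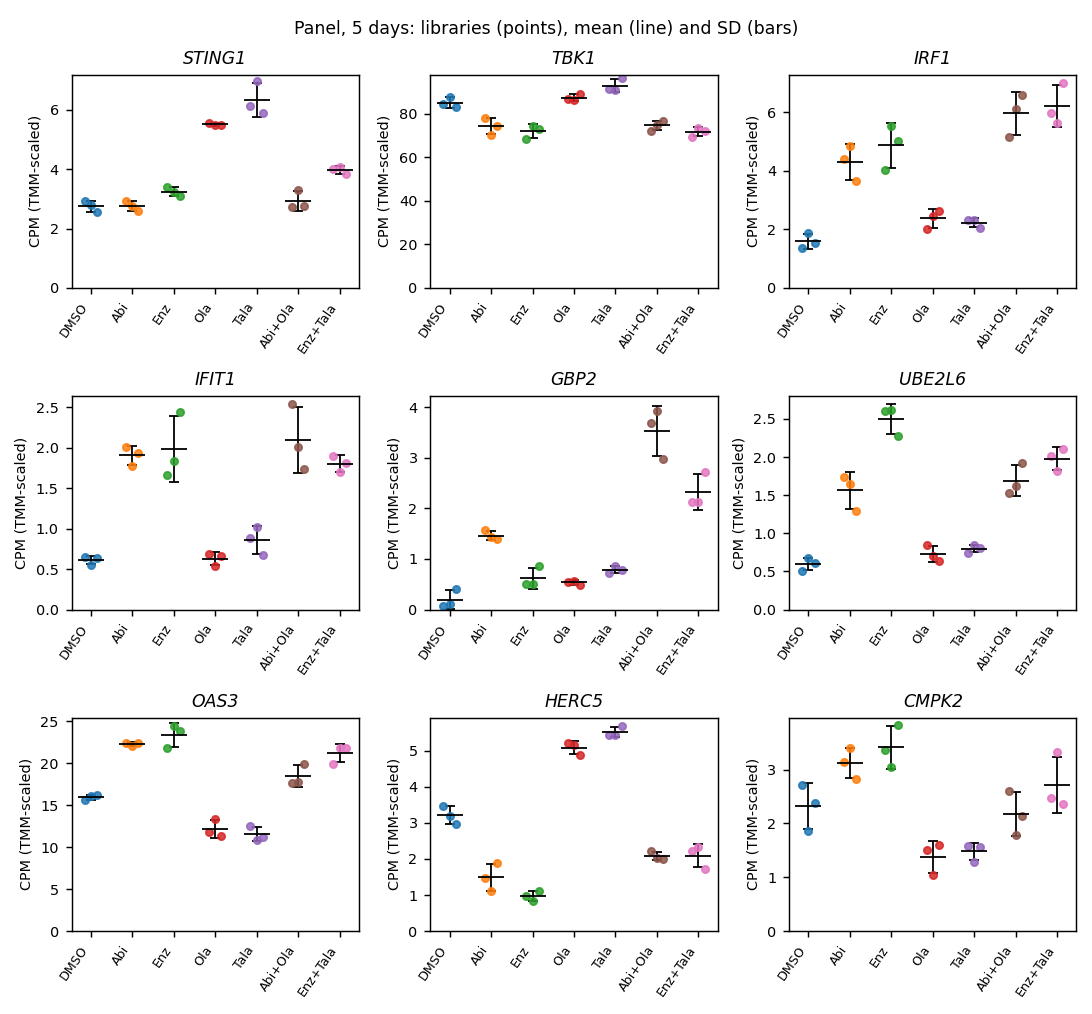
CPM (vertical axes, from 0) of 9 genes in the 21 panel libraries, with points for libraries, horizontal lines for the mean and bars for the SD of 3 libraries. STING1 is highest with olaparib (5.48 to 5.55 CPM) and talazoparib (5.89 to 6.97 CPM), while IRF1 and IFIT1 are highest in groups with an ARPi and HERC5 is lowest there.

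The OAS enzymes, which make the oligoadenylates that activate RNase L, did not move as a block. OAS3 (chr12:112938051-112976460) was at 15.6, 16.1 and 16.2 CPM with DMSO and at 12.5, 10.9 and 11.2 CPM with talazoparib. The talazoparib libraries lay wholly below DMSO, and so did olaparib (11.8, 13.4 and 11.3 CPM), with log2 values of -0.47 ± 0.07 at adjusted p = 1.36e-06 and -0.39 ± 0.07 at adjusted p = 2.87e-05. With the ARPi it rose instead, to 22.4, 22.1 and 22.4 CPM with abiraterone and 21.8, 24.4 and 23.9 CPM with enzalutamide (0.48 ± 0.07 at adjusted p = 1.27e-07 and 0.55 ± 0.07 at adjusted p = 5.71e-09, log2). It was higher with enzalutamide plus talazoparib (0.41 ± 0.07 at adjusted p = 1.60e-06) and with abiraterone plus olaparib (0.21 ± 0.07 at adjusted p = 0.00858), the latter lost without abiraterone plus olaparib replicate C (adjusted p = 0.0795). OAS1, also on chromosome 12, rose with both combinations (1.61 ± 0.28 at adjusted p = 7.34e-06 and 1.49 ± 0.28 at adjusted p = 2.02e-05, log2), from 0.405 to 0.475 CPM with DMSO to between 0.966 and 1.5 CPM. Each single agent gave a smaller OAS1 difference that did not hold under every setting. OAS1 was at 0.814, 0.381 and 0.986 CPM with abiraterone, 0.60, 0.826 and 0.934 with enzalutamide, 0.763, 0.706 and 0.745 with olaparib and 0.833, 0.844 and 0.721 with talazoparib, and 1 abiraterone library lay below DMSO. The log2 values were 0.75 ± 0.30 at adjusted p = 0.0449 with olaparib, 0.73 ± 0.30 at adjusted p = 0.0377 with abiraterone, 0.86 ± 0.29 at adjusted p = 0.0131 with enzalutamide and 0.86 ± 0.29 at adjusted p = 0.0199 with talazoparib. With olaparib the OAS1 call was lost when DMSO replicate A, B or C or olaparib replicate A, B or C was left out, with total-count scaling, with no filter on low counts, with DESeq2's Wald test and in a fit of the compared groups alone (adjusted p from 0.0585 to 0.126). With abiraterone it was lost when DMSO replicate A, B or C or abiraterone replicate A or C was left out, with no filter on low counts, with DESeq2's Wald test and in a fit of the compared groups alone (adjusted p from 0.0520 to 0.256). With enzalutamide it was lost without enzalutamide replicate C (adjusted p = 0.0712). With talazoparib it was lost when DMSO replicate B or C or talazoparib replicate A or B was left out (adjusted p from 0.0526 to 0.0745). OASL, a relative without enzyme activity, rose in all 6 treatments, from 1.19 to 2.49 on the log2 scale, at levels from 0.136 to 0.304 CPM with DMSO. OAS2 was under 0.5 CPM in every panel library and passed in no comparison with DMSO.

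ISG15 is a ubiquitin-like protein that is joined to targets by UBE2L6 and HERC5 and removed by USP18, and these genes moved in different directions. UBE2L6, the conjugating enzyme, was at 0.509, 0.669 and 0.608 CPM with DMSO and 2.6, 2.62 and 2.27 CPM with enzalutamide. No library overlapped, and the rise was 2.05 ± 0.21 at adjusted p = 1.27e-10 (log2). Abiraterone (1.38 ± 0.21 at adjusted p = 9.87e-07), abiraterone plus olaparib (1.49 ± 0.21 at adjusted p = 1.59e-07) and enzalutamide plus talazoparib (1.72 ± 0.21 at adjusted p = 5.34e-09) raised it as well, and neither PARPi alone passed the test. ISG15 itself rose most with abiraterone plus olaparib (0.67 ± 0.11 at adjusted p = 1.96e-06, log2), from 7.88, 5.36 and 5.57 to 9.57, 10.8 and 9.31 CPM. It rose with olaparib (0.44 ± 0.11) and enzalutamide plus talazoparib (0.46 ± 0.11). The ISG15 call with abiraterone (0.36 ± 0.11) was lost when DMSO replicate B or C was left out (adjusted p from 0.0599 to 0.0739). Its call with talazoparib (0.31 ± 0.11) was lost when DMSO replicate B or C or talazoparib replicate A or B was left out, with total-count scaling and in a fit of the compared groups alone (adjusted p from 0.0637 to 0.185).

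HERC5 (chr4:88457119-88506163), the ligase for ISG15, fell with ARPi and rose with PARPi. It was at 3.46, 3.20 and 2.96 CPM with DMSO, 1.48, 1.11 and 1.88 with abiraterone and 0.967, 0.826 and 1.10 with enzalutamide. The ARPi libraries all lay below DMSO, and the differences were -1.10 ± 0.17 at adjusted p = 6.56e-07 and -1.73 ± 0.17 at adjusted p = 1.06e-10 (log2). With olaparib it was at 5.21, 5.17 and 4.90 CPM and with talazoparib at 5.46, 5.43 and 5.68 CPM, all above DMSO, by 0.67 ± 0.15 at adjusted p = 0.000462 and 0.79 ± 0.15 at adjusted p = 6.16e-05 (log2). HERC5 was at 2.21, 2.04 and 1.99 CPM with abiraterone plus olaparib and 2.22, 2.33 and 1.73 CPM with enzalutamide plus talazoparib, below DMSO in all 6 libraries (-0.62 ± 0.16 at adjusted p = 0.000998 and -0.60 ± 0.16 at adjusted p = 0.00101, log2). Against enzalutamide alone, enzalutamide plus talazoparib was higher by 1.12 ± 0.17 at adjusted p = 3.46e-06 (log2).

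HERC6, its neighbour on chromosome 4 and a related ligase, was at 9.98, 9.69 and 9.88 CPM with DMSO, 4.91, 4.04 and 5.48 with abiraterone and 4.87, 4.46 and 4.88 with enzalutamide. It was at 4.95, 5.42 and 5.47 CPM with abiraterone plus olaparib and 4.06, 5.14 and 5.62 CPM with enzalutamide plus talazoparib. The 12 libraries with an ARPi all lay below every DMSO library, and the differences were -1.03 ± 0.10 at adjusted p = 1.64e-10 for abiraterone, -1.06 ± 0.10 at adjusted p = 6.61e-11 for enzalutamide, -0.90 ± 0.10 at adjusted p = 2.10e-09 for abiraterone plus olaparib and -1.01 ± 0.10 at adjusted p = 1.02e-10 for enzalutamide plus talazoparib (log2). With the PARPi HERC6 was at 11.8, 11.2 and 11.9 CPM (olaparib) and 11.4, 12.2 and 11.3 CPM (talazoparib) and was called higher, by 0.24 ± 0.10 at adjusted p = 0.0486 and 0.24 ± 0.09 at adjusted p = 0.0488 (log2). The call with olaparib was lost when DMSO replicate A, B or C or olaparib replicate A, B or C was left out, with total-count scaling, with no filter on low counts and with a filter of 50 counts in 3 libraries (adjusted p from 0.0526 to 0.155). That with talazoparib was lost when DMSO replicate A, B or C or talazoparib replicate A, B or C was left out, with RLE scaling and with total-count scaling (adjusted p from 0.0506 to 0.195). USP18, which removes ISG15 and dampens the interferon receptor, fell with olaparib (-0.38 ± 0.06 at adjusted p = 7.14e-06, log2) and talazoparib (-0.34 ± 0.06 at adjusted p = 2.85e-05). It was lower with enzalutamide plus talazoparib (-0.20 ± 0.06) and with abiraterone plus olaparib (-0.20 ± 0.06), the latter lost without abiraterone plus olaparib replicate B (adjusted p = 0.0742). Neither ARPi alone passed for USP18. Its reads can be shared with a near copy, so its level is uncertain.

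MX1, a GTPase that traps viral nucleocapsids, rose with abiraterone (0.86 ± 0.18 at adjusted p = 0.000153, log2) and both combinations (1.02 ± 0.18 at adjusted p = 8.92e-06 and 0.88 ± 0.18 at adjusted p = 7.44e-05). It was also called higher with enzalutamide (0.62 ± 0.18 at adjusted p = 0.00449), a call lost without enzalutamide replicate B (adjusted p = 0.0747). Neither PARPi alone passed for MX1. MX2, a related GTPase of the nuclear envelope, was called lower with enzalutamide (-1.08 ± 0.46 at adjusted p = 0.0444). The MX2 call was lost when DMSO replicate A, B or C or enzalutamide replicate A, B or C was left out, with total-count scaling, with no filter on low counts, with the replicate block and with DESeq2's Wald test (adjusted p from 0.0512 to 0.186). RSAD2 (viperin), which makes a chain-terminating nucleotide, stayed at or under 0.703 CPM, and its log2 rise with enzalutamide plus talazoparib was 2.45 ± 0.56 at adjusted p = 0.000269. Without DMSO replicate C the value was 3.95, but the DMSO libraries left held 0 and 2 counts, so its size depends on a prior count. RSAD2 was also called higher with abiraterone (1.69 ± 0.60), enzalutamide (1.77 ± 0.59) and abiraterone plus olaparib (1.76 ± 0.60). Each of these calls was lost when DMSO replicate A or B was left out, and those of abiraterone and abiraterone plus olaparib also without replicate A of the treated group (adjusted p from 0.0541 to 0.161). Without DMSO replicate C these values were 3.19, 3.27 and 3.26, sizes that depend on a prior count in the same way. CMPK2, a mitochondrial nucleotide kinase whose gene lies head to head with RSAD2, was at 2.72, 1.86 and 2.38 CPM with DMSO, 1.5, 1.04 and 1.60 with olaparib and 1.58, 1.29 and 1.57 with talazoparib. The PARPi libraries lay below all DMSO libraries. The differences were -0.74 ± 0.20 at adjusted p = 0.00280 and -0.64 ± 0.19 at adjusted p = 0.00844 (log2), the latter lost without DMSO replicate A (adjusted p = 0.0534). With the ARPi CMPK2 was called higher instead, at 3.14, 3.40 and 2.83 CPM with abiraterone and 3.37, 3.04 and 3.83 CPM with enzalutamide. These log2 values were 0.43 ± 0.18 at adjusted p = 0.0482 and 0.56 ± 0.18 at adjusted p = 0.00949. The abiraterone call of CMPK2 was lost when DMSO replicate B or C or abiraterone replicate A or B was left out, with no filter on low counts and with DESeq2's Wald test (adjusted p from 0.0503 to 0.237). The enzalutamide call was lost when DMSO replicate B or enzalutamide replicate C was left out (adjusted p from 0.0606 to 0.0778).

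Among the ADP-ribosylation genes, PARP9, DTX3L, PARP12 and PARP14 all rose with both ARPi and both combinations. DTX3L, a ubiquitin ligase that acts in a complex with PARP9, was at 31.9, 32.2 and 30.9 CPM with DMSO, 65.1, 67.0 and 62.8 with abiraterone plus olaparib and 66.2, 66.0 and 66.8 with enzalutamide plus talazoparib. Its libraries in the combinations lay above those of all other groups, and against DMSO the rises were 1.04 ± 0.04 at adjusted p = 2.89e-22 and 1.07 ± 0.04 at adjusted p = 8.01e-23 (log2). PARP9 rose less, by 0.46 ± 0.06 at adjusted p = 1.43e-08 and 0.47 ± 0.06 at adjusted p = 5.07e-09 (log2). PARP14, a mono-ADP-ribosyltransferase, rose most with enzalutamide (24.4, 25.7 and 26.4 against 11.7, 12.5 and 10.5 CPM with DMSO, 1.15 ± 0.07 at adjusted p = 1.27e-15 on the log2 scale). With the PARPi alone DTX3L rose by 0.30 ± 0.04 (olaparib) and 0.16 ± 0.04 (talazoparib). PARP12, another mono-ADP-ribosyltransferase, rose with talazoparib by 0.27 ± 0.05, and its call with olaparib (0.18 ± 0.05) was lost when DMSO replicate B or olaparib replicate A was left out (adjusted p from 0.0544 to 0.0608). The call of PARP9 with olaparib (0.15 ± 0.06) was lost when DMSO replicate A or olaparib replicate A or B was left out, with total-count scaling, with a filter of 50 counts in 3 libraries, with the replicate block and in a fit of the compared groups alone (adjusted p from 0.0598 to 0.315). The call of PARP14 with talazoparib (0.21 ± 0.08) was lost when DMSO replicate C or talazoparib replicate B or C was left out, with total-count scaling and in a fit of the compared groups alone (adjusted p from 0.0751 to 0.357).

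IFITM proteins block the entry of enveloped viruses, and their genes are near copies whose reads can be split between them, so their levels are uncertain. IFITM1 was at 0.577, 1.14 and 0.810 CPM with DMSO and 1.55, 1.64 and 1.59 CPM with talazoparib. All talazoparib libraries lay above DMSO, by 0.91 ± 0.23 at adjusted p = 0.00234 (log2), and enzalutamide (2.13, 1.60 and 2.15 CPM) raised it by 1.21 ± 0.23 at adjusted p = 3.56e-05. With enzalutamide plus talazoparib it was called higher by 0.74 ± 0.23, lost without DMSO replicate A (adjusted p = 0.0557). IFITM3 rose with all 6 treatments, from 0.47 to 0.70 on the log2 scale. IFITM2 fell with each treatment that held an ARPi, from -0.58 with abiraterone to -0.37 with enzalutamide. With the PARPi it was called higher instead, at 12.8, 13.1 and 14.6 CPM with olaparib and 12.9, 14 and 13.4 CPM with talazoparib against 11.1, 11.6 and 11 CPM with DMSO. The log2 values were 0.26 ± 0.08 at adjusted p = 0.00895 and 0.26 ± 0.08 at adjusted p = 0.00968. The first was lost without olaparib replicate C (adjusted p = 0.104) and the second without talazoparib replicate B (adjusted p = 0.0698). BST2 (tetherin), which holds budding virus at the membrane, rose with abiraterone plus olaparib by 0.65 ± 0.14 at adjusted p = 0.000111 (log2). It also rose with enzalutamide (0.60 ± 0.14), olaparib (0.52 ± 0.14) and enzalutamide plus talazoparib (0.46 ± 0.14). The BST2 call with abiraterone (0.34 ± 0.14) was lost when DMSO replicate A or C or abiraterone replicate A or B was left out, with no filter on low counts, with DESeq2's Wald test and in a fit of the compared groups alone (adjusted p from 0.0538 to 0.251). The call with talazoparib (0.37 ± 0.14) was lost when DMSO replicate A or C or talazoparib replicate B was left out, with total-count scaling, with no filter on low counts and in a fit of the compared groups alone (adjusted p from 0.0620 to 0.264).

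GBP2, a guanylate-binding GTPase that responds to interferon gamma, had the largest rise in both combinations among members whose higher group averaged at least 50 counts. It was at 0.0679, 0.116 and 0.405 CPM with DMSO, 3.68, 3.92 and 2.97 with abiraterone plus olaparib and 2.12, 2.12 and 2.72 with enzalutamide plus talazoparib. No library of either combination overlapped any other group. The log2 rises were 4.06 ± 0.31 at adjusted p = 1.38e-13 and 3.45 ± 0.32 at adjusted p = 1.13e-11, and those of the single agents ran from 1.34 with olaparib to 2.79 with abiraterone. These sizes depended on DMSO replicate C, the highest of its group, without which the combinations gave 5.18 and 4.57 and the single agents 2.47 to 3.91, with every call kept. GBP4 held at most 3 counts in each DMSO library, and its group means were set against that floor of 3 counts per library. The mean was at least 3.43-fold higher with abiraterone, at least 3.16-fold with enzalutamide, at least 4.58-fold with abiraterone plus olaparib and at least 6.05-fold with enzalutamide plus talazoparib. With enzalutamide GBP4 held 3, 15 and 16 counts, so replicate A was itself at the floor. Reads of the GBP genes can be shared among family members.

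Of the remaining members, LGALS3BP, a secreted glycoprotein, was at 6.96, 6.05 and 5.95 CPM with DMSO and 10.5, 10.1 and 10.3 CPM with olaparib, without overlap. It rose in all 6 treatments, by 0.71 ± 0.08 at adjusted p = 1.06e-08 with olaparib and up to 1.41 ± 0.08 at adjusted p = 1.5e-17 with enzalutamide plus talazoparib (log2). SAMD9, an antiviral restriction factor, was at 0.475, 0.320 and 0.481 CPM with DMSO and 1.21, 1.62 and 1.85 CPM with abiraterone plus olaparib, again without overlap (1.86 ± 0.32 at adjusted p = 4.71e-06, log2). The other groups with an ARPi lay above DMSO too. SAMD9 was at 1.10, 1.49 and 1.69 CPM with abiraterone, 1.37, 1.46 and 0.934 with enzalutamide and 1.66, 1.18 and 1.67 with enzalutamide plus talazoparib. TRIM14, an adaptor of RNA sensing at mitochondria, was at 100.1, 104 and 104 CPM with DMSO and 63.5, 63.6 and 63.0 CPM with abiraterone plus olaparib. Each library of that combination lay below every DMSO library, with a log2 value of -0.70 ± 0.03 at adjusted p = 3.17e-19, and TRIM14 fell in all 6 treatments. IFI6, which protects the endoplasmic reticulum from viral use, rose in all 6 as well, from 0.53 with olaparib to 1.41 with enzalutamide plus talazoparib. IFI27, a mitochondrial protein, rose with both combinations (1.70 ± 0.37 at adjusted p = 0.000122 and 1.63 ± 0.36 at adjusted p = 0.000186, log2) and passed with no single agent. IFI35 rose with abiraterone (0.99 ± 0.14), enzalutamide (1.13 ± 0.14) and both combinations (1.05 ± 0.14 and 0.89 ± 0.14), and with neither PARPi. SP110, a nuclear body protein, rose with abiraterone (0.61 ± 0.09), olaparib (0.36 ± 0.09) and both combinations (0.68 ± 0.09 and 0.52 ± 0.09). Its call with talazoparib (0.30 ± 0.09) was lost when DMSO replicate C or talazoparib replicate B or C was left out (adjusted p from 0.0522 to 0.0851). IFI44 rose with abiraterone plus olaparib (0.75 ± 0.23). Its call with talazoparib (0.75 ± 0.23) was lost when DMSO replicate B or talazoparib replicate C was left out (adjusted p from 0.0603 to 0.0610). Its call with enzalutamide plus talazoparib (0.69 ± 0.23) was lost when DMSO replicate B or enzalutamide plus talazoparib replicate B was left out (adjusted p from 0.0530 to 0.0903). TRIM21, an antibody receptor of the cytosol, was called higher with abiraterone plus olaparib (0.20 ± 0.08), lost when DMSO replicate C or abiraterone plus olaparib replicate B was left out, with no filter on low counts and in a fit of the compared groups alone (adjusted p from 0.0564 to 0.197). EPSTI1 was called lower with enzalutamide plus talazoparib (-1.08 ± 0.45), lost when DMSO replicate A or C or enzalutamide plus talazoparib replicate A or B was left out and with DESeq2's Wald test (adjusted p from 0.0526 to 0.207). IFI44L, SAMD9L and XAF1 reached at most 7, 4 and 6 counts and are stated as not measured.

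Each combination was also compared with its own single agents. Abiraterone plus olaparib was higher than abiraterone in 11 members (all genes 14.4%) and lower in 4 (14.7%), and against olaparib in 27 (27.3%) and 7 (29.3%). Enzalutamide plus talazoparib was higher than enzalutamide in 12 (all genes 16.5%) and lower in 5 (17.9%), or 9 and 6 with total-count scaling, and against talazoparib in 28 (29.1%) and 9 (29.7%). In either direction abiraterone plus olaparib differed from abiraterone in 15 members (all genes 29.2%) and from olaparib in 34 (56.6%), and enzalutamide plus talazoparib differed from enzalutamide in 17 (34.4%) and from talazoparib in 37 (58.8%). More genes differed from the PARPi than from the ARPi among all genes as among members, and the members' shares against the ARPi (30.6% and 34.7%) were near those of all genes. GBP2 was higher in the combination than in the ARPi alone, by 1.27 ± 0.25 at adjusted p = 0.000130 and 1.88 ± 0.27 at adjusted p = 7.87e-07 (log2), and so were ZNFX1 (0.35 ± 0.04 and 0.41 ± 0.04) and STAT2 (0.36 ± 0.05 and 0.40 ± 0.05).

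The departure of a combination from the sum of its drugs on the log2 scale was tested as an interaction. For abiraterone and olaparib 3 members departed (all genes 12.8%), all downward, where 8.08% of all genes went down and 4.74% up. By edgeR's unadjusted p under 0.05 0 members departed upward, and by DESeq2 0 were called so. The 3 called members were STING1 (-0.91 ± 0.17 at adjusted p = 0.000353), IFITM3 (-0.48 ± 0.08 at adjusted p = 7.97e-05) and PARP12 (-0.28 ± 0.07 at adjusted p = 0.00953). Enzalutamide and talazoparib gave 11 departures (all genes 12.6%), 8 downward (7.28%) and 3 upward (5.32%). Among members whose higher group averaged at least 50 counts, the furthest down were IFITM1 (-1.38 ± 0.32 at adjusted p = 0.00313) and STING1 (-0.90 ± 0.16 at adjusted p = 0.000231), for which the library values are given above. IFITM1 was at 1.36, 1.51 and 1.38 CPM with the combination, below every enzalutamide and every talazoparib library. IFITM3 was at 15.4, 14.9 and 14.6 CPM with DMSO, 21.1, 21.4 and 21 with abiraterone, 21.3, 20.0 and 21 with olaparib and 22.3, 20.8 and 20.0 with both, and the last 3 groups overlapped. The largest departures upward were OAS3 (0.33 ± 0.09 at adjusted p = 0.0165) and ZNFX1 (0.18 ± 0.06 at adjusted p = 0.0428). OAS3 ran from 19.9 to 21.9 CPM with enzalutamide plus talazoparib. ZNFX1 ran from 49.4 to 52.2 CPM with enzalutamide and from 46.9 to 51.5 CPM with talazoparib. That of OAS3 was lost without enzalutamide replicate A (adjusted p = 0.0552). That of ZNFX1 was lost when DMSO replicate B or C or enzalutamide replicate A or C or talazoparib replicate B was left out, with the replicate block and in a fit of the compared groups alone (adjusted p from 0.0524 to 0.178). Without talazoparib replicate C the number of departures for enzalutamide and talazoparib was 7.

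Drugs of the same class were compared at the doses used, which differ. Enzalutamide was higher than abiraterone in 8 members (all genes 9.78%) and lower in 5 (10.1%), led by IFITM1 (1.31 ± 0.24 at adjusted p = 7.93e-05) upward and GBP2 (-1.22 ± 0.28 at adjusted p = 0.00133) downward (log2). In either direction 13 members differed (all genes 19.8%), and without abiraterone replicate C the number was 7. Talazoparib was higher than olaparib in 1 member (all genes 3.11%) and lower in 2 (5.25%). These 3 members (all genes 8.36%) were IFITM1, ZNFX1 and DTX3L, and the number was 1 without olaparib replicate C or talazoparib replicate B and 0 without talazoparib replicate C. Enzalutamide plus talazoparib was higher than abiraterone plus olaparib in 7 members (all genes 5.84%) and lower in 0 (6.71%; 12.5% in either direction), or 6 and 1 with total-count scaling. By edgeR's unadjusted p under 0.05 5 members were lower, and by DESeq2 2 were called lower. The largest of the 7 higher members was STING1 (0.43 ± 0.12 at adjusted p = 0.0112, log2), a call lost when abiraterone plus olaparib replicate A or C was left out and with no filter on low counts (adjusted p from 0.0513 to 0.0625), and without abiraterone plus olaparib replicate A the number was 4.

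The time course asked how the olaparib response of these genes changed with dose and duration. At day 1, 1 μM raised 9 of 47 members (all genes 6.3%) and lowered 1 (9.52%), and 5 μM raised 26 (21.6%) and lowered 1 (23.4%). At day 5, 1 μM raised 23 (all genes 23.4%) and lowered 6 (22.9%), and 5 μM raised 27 (34.4%) and lowered 8 (33.9%). In either direction the counts were 10 (15.8%), 27 (45%), 29 (46.3%) and 35 (68.2%). The members' median log2 fold changes were 0.18, 0.33, 0.29 and 0.35 in that order. Under DMSO alone 5 members were higher at day 5 than at day 1 (all genes 11.1%) and 2 lower (13.4%; 24.5% in either direction).

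After 1 day of 1 μM olaparib OAS1 had the largest log2 rise among members called. It was at 0.462, 0.675 and 0.681 CPM against 0.256, 0.236 and 0.338 with DMSO, without overlap (1.13 ± 0.27 at adjusted p = 0.00269, log2). IFI44 was at 1.51, 1.18 and 1.63 CPM against 1.05, 0.755 and 0.832 with DMSO, without overlap (0.72 ± 0.19 at adjusted p = 0.00892, log2), and the call was lost when day 1 DMSO replicate 2 or day 1 olaparib 1 μM replicate 3 was left out (adjusted p from 0.0550 to 0.0619). IFI35, a leucine zipper protein, was at 2.31, 2.10 and 2.36 CPM against 1.25, 1.44 and 1.95 with DMSO, again without overlap (0.54 ± 0.17 at adjusted p = 0.0243, log2), and its call was lost when day 1 DMSO replicate 1 or 2 or day 1 olaparib 1 μM replicate 1 or 3 was left out (adjusted p from 0.0711 to 0.164). PARP14 was at 11.7, 11.5 and 11.3 CPM against 7.93, 8.73 and 8.58, with no overlap and a rise of 0.45 ± 0.06 at adjusted p = 2.23e-06 (log2). TRIM14 was the member that fell, at 111, 116 and 114 CPM against 123, 122 and 126 (-0.12 ± 0.03 at adjusted p = 0.00163, log2).

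After 1 day of 5 μM olaparib PARP14 was at 17.3, 16.6 and 16.9 CPM, above every other time course library. That was a rise of 1.01 ± 0.06 at adjusted p = 2.32e-16 (log2). IRF1 was at 3.56, 3.85 and 3.80 CPM against 1.93, 1.75 and 2.26 with DMSO, without overlap (0.92 ± 0.13 at adjusted p = 4.51e-07, log2). OAS3 rose as well, to 24.2, 22.9 and 22.2 CPM from 15.1, 15.6 and 16.7 (0.55 ± 0.05 at adjusted p = 1.09e-11, log2). TRIM14 fell to 98.6, 100.3 and 97.9 CPM (-0.32 ± 0.03 at adjusted p = 2.98e-12, log2). IFIT2 (0.89 ± 0.21 at adjusted p = 0.000760), IFIT3 (1.92 ± 0.41 at adjusted p = 0.000213) and OAS1 (1.37 ± 0.26 at adjusted p = 4.33e-05) rose on the log2 scale, at levels under 1.5 CPM. Without day 1 DMSO replicate 2 IFIT3 gave 2.80, but the DMSO libraries left held 2 and 3 counts, so that size depends on a prior count.

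At day 5 OAS1 and GBP2 rose and OAS3, CMPK2 and USP18 fell, each further at the higher dose. OAS1 (chr12:112905856-112933219) was at 0.529, 0.433 and 0.309 CPM with DMSO, 1.82, 1.57 and 1.81 at 1 μM and 4.93, 3.93 and 4.19 at 5 μM. The 3 groups did not overlap and rose with dose, by 2.01 ± 0.22 at adjusted p = 8.08e-10 and 3.34 ± 0.21 at adjusted p = 6.95e-17 against DMSO (log2). In the panel, 5 days of 1 μM olaparib gave 0.75 ± 0.30 for OAS1, the call described above as lost under other settings. OAS3, its neighbour, was at 16.3, 16.2 and 17.0 CPM with DMSO, 12.4, 12.6 and 12.2 at 1 μM and 5.38, 5.05 and 5.57 at 5 μM. It fell with dose, again without overlap, with log2 values of -0.41 ± 0.05 at adjusted p = 3.73e-08 and -1.63 ± 0.06 at adjusted p = 2.56e-23. GBP2 was at 0.507, 0.298 and 0.206 CPM with DMSO, 0.778, 1.00 and 0.865 at 1 μM and 3.14, 2.69 and 2.76 at 5 μM, without overlap, and rose by 3.05 ± 0.26 at adjusted p = 7.23e-13 (log2) at the higher dose. GBP1 was at 3, 0 and 2 counts with DMSO and 26, 22 and 21 with 5 μM, at least 8.62-fold higher against the floor of 3 counts per library. GBP1 passed the filter on low counts only through these 5 μM libraries and held at most 7 counts in any other of the time course, so it had to differ, and no test of it is given, although the counts of members called include it.

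IFIT2 was at 0.705, 0.542 and 0.540 CPM with DMSO at day 5, 1.66, 1.14 and 0.977 at 1 μM and 2.63, 2.39 and 2.17 at 5 μM, with no overlap between groups (1.99 ± 0.21 at adjusted p = 9.54e-11 at 5 μM, log2). IFI44 was at 0.793, 0.840 and 0.823 CPM with DMSO and 1.85, 1.57 and 1.37 CPM at 1 μM, all above DMSO (0.96 ± 0.20 at adjusted p = 8.51e-05, log2). CMPK2 was at 3.13, 3.41 and 3.40 CPM with DMSO, 2.06, 2.06 and 2.04 at 1 μM and 1.15, 1.12 and 1.35 at 5 μM. It fell with dose and without overlap, with log2 values of -0.69 ± 0.14 at adjusted p = 7.39e-05 and -1.45 ± 0.15 at adjusted p = 5.70e-11. USP18 was at 18.7, 18.8 and 18.3 CPM with DMSO, 12.9, 14.8 and 13.8 at 1 μM and 11.2, 10.1 and 10.7 at 5 μM, also falling with dose (-0.43 ± 0.05 at adjusted p = 9.88e-09 and -0.80 ± 0.05 at adjusted p = 9.08e-16, log2).

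ISG15 was at 7.43, 8.26 and 7.87 CPM with DMSO, 12.1, 12.0 and 11.8 at 1 μM and 18.8, 17.1 and 18.3 at 5 μM, a rise at 5 μM of 1.20 ± 0.07 at adjusted p = 5.49e-18 (log2). ZNFX1, among the more abundant members, was at 50.4, 48.0 and 47.0 CPM with DMSO and 112, 117 and 115 CPM at 5 μM (1.24 ± 0.03 at adjusted p = 1.13e-28, log2). Neither gene overlapped between groups. IRF1 rose to 5.77, 5.78 and 5.46 CPM from 1.63, 2.19 and 1.85 (1.59 ± 0.13 at adjusted p = 2.07e-13, log2), and IRF7 by 0.77 ± 0.10 at adjusted p = 3.85e-08. IFITM1 was at 0.441, 0.758 and 0.746 CPM with DMSO, 0.885, 1.19 and 0.949 at 1 μM and 0.252, 0.197 and 0.253 at 5 μM. The 5 μM libraries lay below all others, with a log2 value of -1.44 ± 0.32 at adjusted p = 0.000141, while the rise at 1 μM (0.65 ± 0.26 at adjusted p = 0.0363) was lost when day 5 DMSO replicate 1 or day 5 olaparib 1 μM replicate 2 or 3 was left out, with no filter on low counts and with DESeq2's Wald test (adjusted p from 0.0535 to 0.233).

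Other members changed at day 5 with 5 μM. LGALS3BP rose by 1.69 ± 0.08 at adjusted p = 4.08e-20, STAT2 by 0.76 ± 0.04 at adjusted p = 6.01e-20 and OASL by 1.83 ± 0.38 at adjusted p = 6.36e-05, while 1 μM gave 0.71 ± 0.09 and 0.38 ± 0.04 for the first and second and no call for OASL (log2). IFI27 rose by 2.52 ± 0.41 at adjusted p = 1.29e-06 at 5 μM, and its call at 1 μM (1.34 ± 0.45) was lost when day 5 DMSO replicate 2 or day 5 olaparib 1 μM replicate 2 was left out (adjusted p from 0.0712 to 0.214). TRIM14 was lower at both doses (-0.30 ± 0.03 and -0.72 ± 0.03 at adjusted p = 8.01e-23). HERC5 rose with 1 μM (0.59 ± 0.13 at adjusted p = 0.000371), and its call with 5 μM (0.31 ± 0.14) was lost when day 5 DMSO replicate 1, 2 or 3 or day 5 olaparib 5 μM replicate 1 or 2 was left out, with total-count scaling, with no filter on low counts and with DESeq2's Wald test (adjusted p from 0.0582 to 0.140). HERC6 was lower with 5 μM (-0.31 ± 0.08 at adjusted p = 0.00142) and was not called with 1 μM (0.14 ± 0.08). EIF2AK2 was lower with both doses (-0.15 ± 0.04 and -0.25 ± 0.04).

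Between doses, 5 μM was higher than 1 μM at day 1 in 14 members (all genes 12.8%) and lower in 2 (15.9%; 28.8% in either direction). At day 5 it was higher in 21 (all genes 26.6%) and lower in 10 (27%, and 53.6% in either direction), or 17 and 14 with total-count scaling. Of the genes described above for day 5, IFITM1 (-2.09 ± 0.31 at adjusted p = 2.84e-07), OAS3 (-1.21 ± 0.07 at adjusted p = 3.15e-18), CMPK2 (-0.77 ± 0.16) and USP18 (-0.38 ± 0.06) were lower at 5 μM than at 1 μM (log2). GBP2 (1.69 ± 0.23 at adjusted p = 1.02e-07), OAS1 (1.32 ± 0.18 at adjusted p = 4.31e-08), IRF1 (1.3 ± 0.13 at adjusted p = 6.03e-11), IFIT2 (0.92 ± 0.19), ZNFX1 (0.72 ± 0.03), ISG15 (0.59 ± 0.07), IRF7 (0.53 ± 0.10) and IRF3 (0.17 ± 0.04) were higher. STING1, TBK1 and IFI44 did not pass the test between doses.

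**Figure D3:**
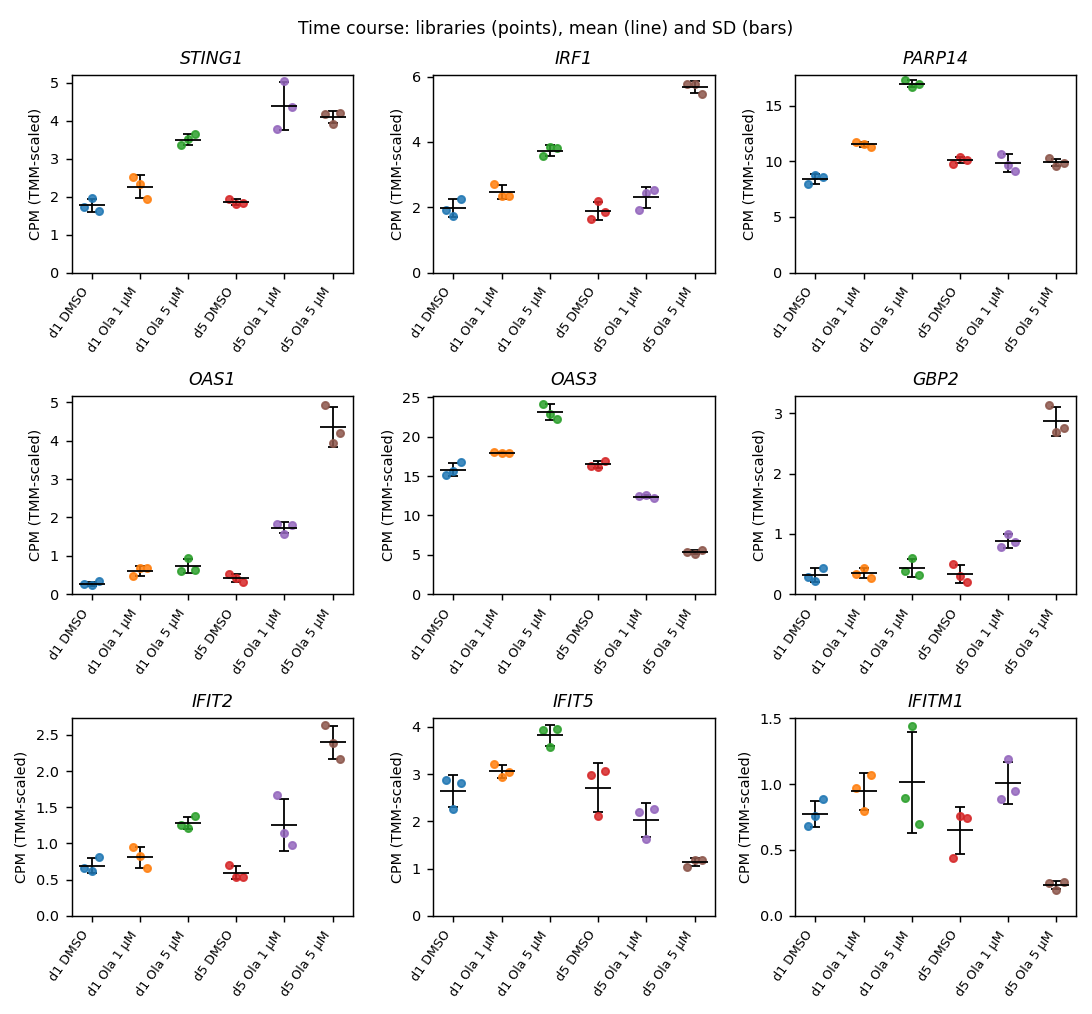
CPM (vertical axes, from 0) of 9 genes in the 18 time course libraries, with points for libraries, horizontal lines for the mean and bars for the SD of 3 libraries. OAS1 and GBP2 are highest with olaparib 5 μM at day 5 (3.93 to 4.93 and 2.69 to 3.14 CPM), where OAS3 and IFIT5 are at their lowest, and PARP14 is highest with 5 μM at day 1 (16.6 to 17.3 CPM).

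Whether the olaparib effect differed between days was tested directly. At 1 μM the effect differed in 18 members (all genes 29.8%), higher at day 5 in 11 (15.6%) and lower in 7 (14.2%). Among members whose higher group averaged at least 50 counts, the largest were STING1 (0.88 ± 0.19 at adjusted p = 0.000351) and LGALS3BP (0.54 ± 0.13 at adjusted p = 0.000981) upward, and IFI35 (-0.83 ± 0.24 at adjusted p = 0.00719) and IFIT5 (-0.64 ± 0.21 at adjusted p = 0.0169) downward, all on the log2 scale. LGALS3BP was at 5.60, 5.21 and 5.85 CPM with DMSO and 5.44, 6.56 and 6.71 CPM with 1 μM at day 1, which overlapped. At day 5 it was at 5.77, 4.66 and 5.82 CPM with DMSO and 9.60, 8.13 and 8.90 CPM with 1 μM, which did not. IFI35 was at 1.74, 2.41 and 2.26 CPM with DMSO and 1.90, 1.44 and 1.90 CPM with 1 μM at day 5, which overlapped. With 1 μM olaparib IFIT5 was at 3.21, 2.94 and 3.04 CPM at day 1 and 2.20, 1.63 and 2.26 CPM at day 5. The IFIT5 difference was lost when day 1 DMSO replicate 2 or day 5 DMSO replicate 1 or 3 or day 5 olaparib 1 μM replicate 2 was left out (adjusted p from 0.0534 to 0.0753).

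At 5 μM the effect differed between days in 29 members (all genes 54.9%), higher at day 5 in 17 (27.2%) and lower in 12 (27.7%). GBP2 (2.58 ± 0.43 at adjusted p = 3.11e-06) and OAS1 (1.96 ± 0.36 at adjusted p = 1.26e-05) had the largest differences upward among members at that count, and OAS3 (-2.17 ± 0.08 at adjusted p = 2.11e-23) and IFIT5 (-1.80 ± 0.22 at adjusted p = 5.09e-09) downward (log2). GBP2 was at 0.284, 0.212 and 0.442 CPM with DMSO and 0.384, 0.595 and 0.324 CPM with 5 μM at day 1, which overlapped. OAS1 was at 0.256, 0.236 and 0.338 CPM with DMSO and 0.615, 0.934 and 0.620 CPM with 5 μM at day 1, which did not. IFIT5 was at 2.87, 2.26 and 2.81 CPM with DMSO and 3.94, 3.57 and 3.96 CPM with 5 μM at day 1. At day 5 it was at 2.98, 2.11 and 3.06 CPM with DMSO and 1.04, 1.18 and 1.18 CPM with 5 μM. It was above DMSO in each library of the first day and below it in each library of the fifth, with log2 values of 0.53 ± 0.14 at adjusted p = 0.00205 and -1.26 ± 0.16 at adjusted p = 1.14e-08. PARP14, raised at day 1, was at 9.79, 10.3 and 10.1 CPM with DMSO and 10.2, 9.57 and 9.87 CPM with 5 μM at day 5, and its effect differed by -1.03 ± 0.09 at adjusted p = 1.38e-12 (log2).

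**Figure D4:**
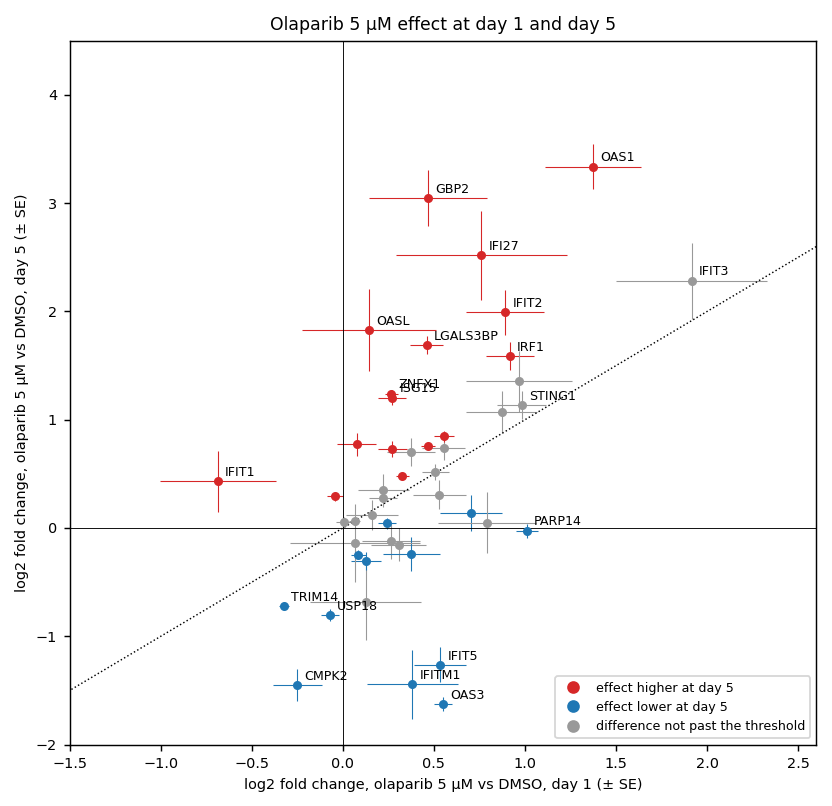
Log2 fold change against DMSO with olaparib 5 μM at day 1 (horizontal axis) and day 5 (vertical axis) for the members tested, except GBP1, whose DMSO libraries held at most 3 counts, with bars of 1 SE. Red and blue mark a day effect past the threshold, higher or lower at day 5, and the dotted line marks equal change, with OAS3 at 0.55 and -1.63, IFIT5 at 0.53 and -1.26 and GBP2 at 0.47 and 3.05.

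Members with and without the paired GAAA motif are set side by side as counts. After abiraterone 17 of 27 members with a match in a window rose and 2 fell, against 7 and 2 of 10 without (of all genes, 25.8% rose and 27.1% fell). With enzalutamide plus talazoparib 21 of 27 rose and 4 fell, against 7 and 2 of 10 (all genes 31.2% and 31.3%). After 5 days of 5 μM olaparib 14 of 26 with a match rose and 5 fell, among them OAS3, IFIT5, IFITM1 and TRIM14, against 5 and 2 of 10 without (all genes 34.4% and 33.9%). The 26 include GBP1, which passed the filter on low counts only through those 5 μM libraries. Members on both sides moved in both directions.

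The interferon genes examined were not detected at a usable level, and other interferon genes were not examined. Of the 9 (IFNA1, IFNA2, IFNB1, IFNE, IFNK, IFNG, IFNL1, IFNL2 and IFNL3), none had more than 3 counts in any of 39 libraries, and IFNA1, IFNA2, IFNE and IFNL3 had 0 in all. Of 28 further pathway genes tested in the panel, from a list of receptors, kinases, sensors, regulators and nucleases, 10 rose and 6 fell with abiraterone (all genes 25.8% and 27.1%), 11 and 8 with enzalutamide (all genes 27% and 26.3%), 9 and 4 with olaparib (all genes 19.6% and 16%) and 8 and 5 with talazoparib (all genes 18.4% and 15.4%). Abiraterone plus olaparib raised 12 and lowered 7 (all genes 31.1% and 31.1%), and enzalutamide plus talazoparib raised 14 and lowered 8 (all genes 31.2% and 31.3%). In the panel the shares of these genes that fell were near or below those of all genes. In the time course 27 were tested. At day 1, 1 rose and 0 fell with 1 μM olaparib (all genes 6.3% and 9.52%), and 9 and 4 with 5 μM (21.6% and 23.4%). At day 5, 9 rose and 4 fell with 1 μM (all genes 23.4% and 22.9%), and 19 and 5 with 5 μM (34.4% and 33.9%). TLR3, which senses double-stranded RNA in endosomes, rose with abiraterone plus olaparib by 2.51 ± 0.17 at adjusted p = 5.76e-15 and after 5 days of 5 μM olaparib by 1.68 ± 0.18 at adjusted p = 2.6e-10 (log2). RNASEH2A, a subunit of the enzyme that removes ribonucleotides from DNA, fell in the same comparisons, with log2 values of -0.70 ± 0.05 at adjusted p = 1.58e-13 and -2.0 ± 0.04 at adjusted p = 3.21e-32. The TLR3 level was also above DMSO (0.679, 1.02 and 0.836 CPM) with either ARPi alone. It was at 3.75, 3.75 and 4.03 CPM with abiraterone, 3.00, 3.51 and 3.09 with enzalutamide and 5.01, 4.67 and 4.89 with abiraterone plus olaparib.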

How the data were processed

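RNA of C4-2B cells was sequenced from 39 libraries with a stranded mRNA kit and paired reads. The authors trimmed reads with Trim Galore, aligned them to GRCh38 with STAR and quantified genes with Salmon on GENCODE annotation, and deposited the estimated counts of each gene in whole numbers, with rounding not described. Gene identifiers were matched to symbols with a GENCODE annotation of the same build but an earlier release. Groups follow the sample labels. Tests were run on the counts in R 4.3.3 with the robust quasi-likelihood method of edgeR 4.0.16, after TMM scaling and filterByExpr by group, separately for the panel and the time course, with all groups of an experiment in 1 fit and Benjamini-Hochberg adjustment over all tested genes. Script behaviour was tested on simulated data. Values in every library are given for CGAS, STING1, TBK1 and IRF3 and, per comparison with DMSO, for the top 3 called members upward and the top 2 downward by log2 fold change whose higher group averaged at least 50 counts. The top 2 departures from additivity and day effects in each direction were chosen and given likewise. For enzalutamide and talazoparib, the departures of OAS3 and ZNFX1 are given in part as ranges. Further members were named after their values were seen. The members and lists were chosen with earlier results of these data known. Replicates of a group differed by more than sampling noise in every pair (chi-square per degree of freedom from 2.15 to 5.80), so none was merged. The alternatives were RLE and total-count scaling, no filter and a stricter filter on low counts (50 counts in 3 libraries), DESeq2 1.42.0, a fit of the compared groups alone, a replicate block and leaving out each library. Promoter sequences came from RefSeq (GRCh38.p14).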

Additional observations from a re-analysis of the deposited data

Results flagged for a closer look

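The effect of a combination differed from the sum of its drugs, by an interaction test, in 3 members for abiraterone and olaparib (6.12% of members against 12.8% of all genes) and in 11 for enzalutamide and talazoparib (22.4% against 12.6%). For abiraterone and olaparib the departures on the log2 scale were -0.91 for STING1 and -0.48 for IFITM3. For enzalutamide and talazoparib they were -1.38 for IFITM1, -0.90 for STING1, 0.33 for OAS3 and 0.18 for ZNFX1. The OAS3 call was lost without enzalutamide replicate A (adjusted p = 0.0552 by edgeR), and the ZNFX1 call was lost in 7 settings, the replicate block among them (adjusted p from 0.0524 to 0.178).

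The effect of olaparib differed between day 1 and day 5, by the same kind of test, in 18 members at 1 μM (38.3% of members against 29.8% of all genes) and in 29 at 5 μM (61.7% against 54.9%). At 5 μM the effect was higher at day 5 in 36.2% of members (all genes 27.2%) and lower in 25.5%, which was near the share of all genes (27.7%). The members counted include GBP1, which passed the filter on low counts only through the 5 μM libraries of day 5. At 1 μM the effect at day 5 minus that at day 1 was 0.88 for STING1, 0.54 for LGALS3BP, -0.83 for IFI35 and -0.64 for IFIT5 (log2), the last of which lost its call when any 1 of 4 libraries was left out (adjusted p from 0.0534 to 0.0753 by edgeR). At 5 μM it was 2.58 for GBP2, 1.96 for OAS1, -2.17 for OAS3 and -1.80 for IFIT5. Each pair of effects in these tests shares an experiment, and the 2 days have separate DMSO libraries.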

How the results depend on the processing

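Of 543 calls of a member in a comparison, 405 kept their call and direction in each alternative that refitted them and with each library left out, and 362 of these were refitted in all 7 alternatives that kept the libraries. The stricter filter left 71 of the 543 calls without a test, the fit of the compared groups alone 6 and DESeq2 1. With the fit changed and all libraries kept, DESeq2 lost 34 calls, no filter on low counts 36, total-count scaling 29, a fit of the compared groups alone 22, the replicate block 4, RLE scaling 3 and the stricter filter 2 of the 472 it left. TBK1 after 5 days of 5 μM olaparib turned from higher to -0.0154 (log2) with total-count scaling (adjusted p = 0.627 by edgeR), and the cause was not tested. Replicate letters and numbers did not pair libraries, since deviations of same-numbered libraries correlated at -0.0686 to 0.0636 in the panel and -0.133 to 0.116 in the time course, and with the replicate block each count of members called stayed within 1 of its value without it. Leaving out 1 library gave 7 to 12 members for enzalutamide against abiraterone (13 with all), 0 to 3 for talazoparib against olaparib (3), 4 to 6 for enzalutamide plus talazoparib against abiraterone plus olaparib (7) and 7 to 11 departures for enzalutamide and talazoparib (11). Total-count scaling moved the median of all genes by -0.131 for the day effect at 5 μM. Members under 10 counts, and GBP1, GBP4 and RSAD2 in DMSO, are limited by depth.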
